A study of Mus musculus with 4 samples.

Results

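The genes examined were 34 genes of DNA repair and DNA damage signalling, chosen by symbol and sorted by repair pathway, and all 34 had a row among the 18854 genes of the deposited table. RNA had been sequenced from cultured cortical neurons of wild-type mice, at 15 days in vitro when treatment began. For 2 days from then they had received either Nutlin-3, the study's p53 activator, or the solvent DMSO. Nutlin-3 keeps the ubiquitin ligase Mdm2 from binding p53. There were 2 libraries per group, and the titles name DMSO for the controls while their treatment field reads as untreated. Nothing in the labels ties the libraries to separate cultures. The p-values therefore describe the spread between these samples only, which may be technical.

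Cells repair DNA by several routes. Nucleotide excision repair cuts out a stretch around a bulky lesion, base excision repair replaces a damaged base and seals the nick, and mismatch repair corrects copying errors. Breaks through both strands are rejoined directly by end joining or copied from a sister chromatid by homologous recombination, which needs a replicated genome and so is not the main route of postmitotic neurons. The kinases Atm and Atr sense breaks and stalled forks and signal to p53. In dividing cells p53 in turn is known to raise several repair genes, among them Xpc and Polk.

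The values are CPM, reads per 1000000 reads of each library. The 4 libraries held between 14584247 and 19065197 reads. Mitochondrially encoded RNAs, found by their symbols, took 15.6% and 14.3% of the DMSO totals and 8.97% and 9.99% of the activator totals, and the share of nuclear protein-coding genes was 73.4% and 75.8% against 83.0% and 82.6%. CPM of a protein-coding gene therefore stood beside a larger protein-coding share in the activator libraries. Neuronal markers summed to 5732 and 6440 CPM in DMSO and 6478 and 6591 CPM with the activator, and 3 of the 5 rose and 1 fell. Astrocyte markers summed to 2231 and 2208 CPM in DMSO and 2576 and 2572 CPM with the activator, with 1 of 7 (Slc1a2) called higher by limma and 0 by edgeR. Markers of the oligodendrocyte lineage, 6 of 7 with a row, summed to 171 and 165 CPM and then 190 and 187 CPM, with 0 called by limma, edgeR or DESeq2 and 3 higher at an unadjusted limma p under 0.05. The activator sums of the neuronal, astrocyte and oligodendrocyte lists lay above their DMSO sums, and the part of these cells in the results was not tested. Of 6 microglial markers the 3 with a row, of which 2 passed the filter on low values, summed to 2.88 to 4.53 CPM. The 9 markers of dividing cells summed to 74.3 and 76.8 CPM in DMSO and 68.6 and 65.1 CPM with the activator, and 0 of the 9 passed the limma test, though Mki67 and Top2a were lower at an unadjusted p under 0.05 and were called lower in edgeR (0 of 9 in DESeq2). In bulk samples fewer cells of a type and less RNA per cell cannot be told apart.

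Most repair genes did not pass the test. Lig4 and Apex1 rose and Polb and Atr fell, and the other 30 did not pass, including Xpc, Ddb2 and Polk. A gene was called when its adjusted p was under 0.05 in limma, fitted to log2(CPM + 1) over the 16654 genes that reached 1 CPM in 2 or more libraries, a filter that all 34 passed. The 2 called higher are 5.88% of the 34, where 16.9% of all tested genes and 21.2% of nuclear protein-coding genes were called higher. The 2 called lower are likewise 5.88%, where 16.3% of all tested genes and 7.19% of protein-coding genes were called lower. In either direction the share was 33.2% of all tested genes. The median log2 fold change of the 34 genes was -0.05, beside 0.03 for all tested genes and 0.09 for protein-coding genes. It was above 0 with quantile normalization (0.02) and without p53 activator replicate 2 (0.01). In 13 of the 34 (38.2%) both activator libraries lay below both DMSO libraries, and in 6 (17.6%) both lay above. The same held for 30.9% and 36.6% of all tested genes (67.6% in either direction) and for 19.8% and 45.2% of protein-coding genes. The 95% interval excluded a 1.5-fold rise of the gene's own DMSO level for 32 of the 34 genes and a 1.5-fold fall for 26.

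**Figure D1:**
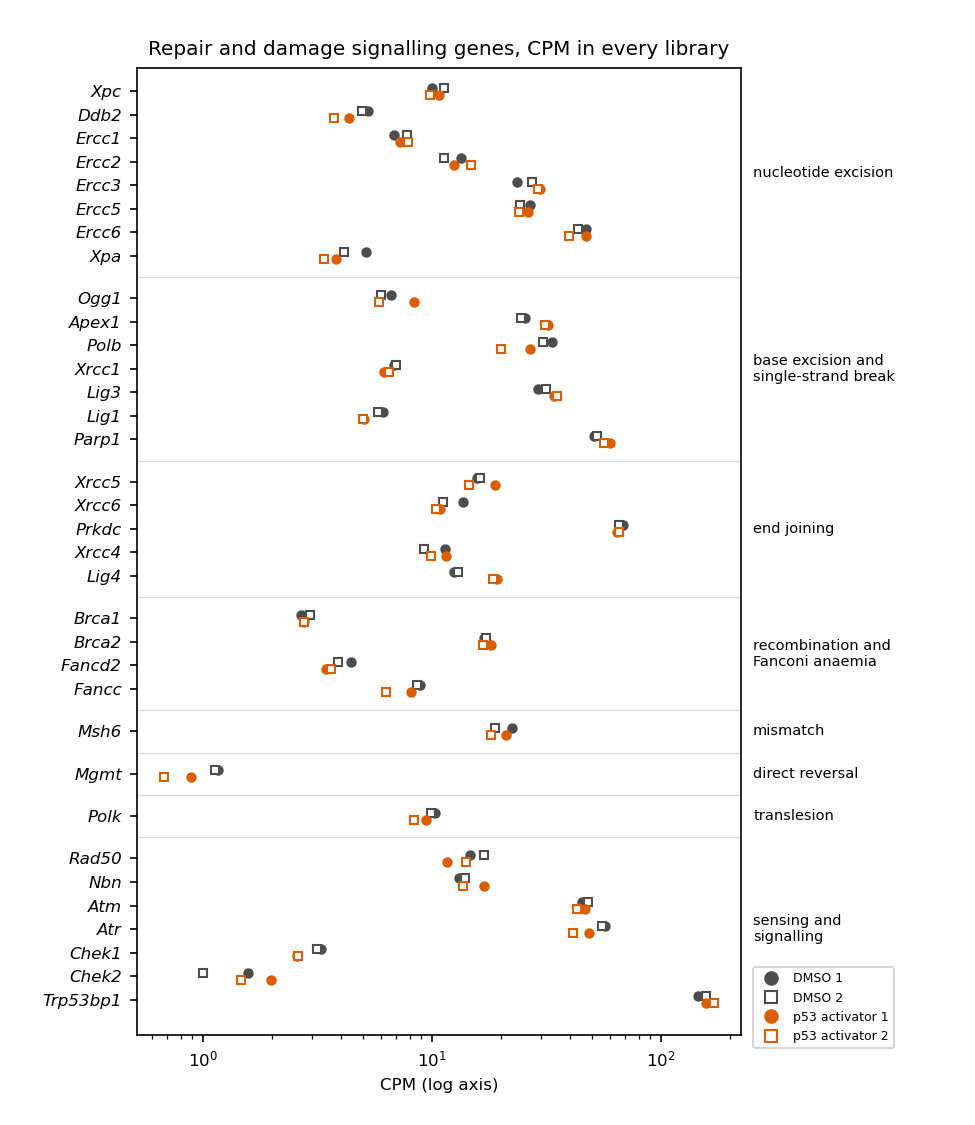
CPM of each of the 34 genes (log axis) in the 2 DMSO libraries (dark grey) and the 2 p53 activator libraries (orange), ordered by pathway, with filled circles for library 1 and open squares for library 2. Levels run from 0.677 CPM for Mgmt to 170 CPM for Trp53bp1. The activator points lie wholly above the DMSO points in 6 of the 34 genes and wholly below in 13. Lig4, Apex1, Polb and Atr are among these, and 67.6% of all tested genes lie apart in either direction.

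The scaling of the libraries moved these counts. After nuclear protein-coding genes had been rescaled to a total of their own, the median of protein-coding genes moved by -0.14 on the log2 scale. On that scale Lig4 was the only one of the 34 called higher, while Polb, Atr and Rad50 were called lower, where 4.34% and 13.1% of protein-coding genes were called higher and lower. The median of the 34 genes was then -0.19, beside -0.04 for protein-coding genes. The difference of the 34 genes' median from the protein-coding median was -0.14 on the deposited scale and -0.15 on the rescaled values, but -0.08 with quantile normalization, a description with no test.

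Treatment checks among the genes of p53 itself gave no call. Trp53, which encodes p53, stood at 8.23 and 7.08 CPM in DMSO and 7.55 and 8.64 CPM with the activator. Mdm2, a p53 target, stood at 48.1 and 47.2 CPM and then 45.2 and 40.1 CPM, and Cdkn1a, the p53 target that encodes p21, at 18.3 and 18.1 CPM and then 22.8 and 19.1 CPM. Their limma adjusted p were 0.761, 0.166 and 0.215. After rescaling to the protein-coding total, and after quantile normalization, Mdm2 was called lower (adjusted p = 0.00967 and 0.0455).

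Start regions of Lig4, Apex1 and Atr, and not of Polb, are shown because p53 binds DNA through a response element made of 2 decamers. That of Polk, which was not called, is shown for its match to 1 such decamer. They are windows of 300 bases, 250 before to 50 after the annotated start, from RefSeq on build GRCm38.p6. At least 1 of 31 windows was available for 26 of the 34 genes. Polb, Xpc and Ddb2 had no window and were not searched. Capitals mark a match to the consensus of a single decamer, which is not a full response element and whose pattern reads the same on both strands. Each window is written 5' to 3' on the strand of its gene.
Lig4, chr8:9977631-9977930, minus strand: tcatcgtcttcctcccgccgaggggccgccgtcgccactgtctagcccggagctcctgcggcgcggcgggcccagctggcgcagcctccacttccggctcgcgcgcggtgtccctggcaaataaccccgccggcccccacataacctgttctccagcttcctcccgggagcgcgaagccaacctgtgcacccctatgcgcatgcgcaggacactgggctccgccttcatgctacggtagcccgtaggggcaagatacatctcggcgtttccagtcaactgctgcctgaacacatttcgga
Lig4, chr8:9976262-9976561, minus strand: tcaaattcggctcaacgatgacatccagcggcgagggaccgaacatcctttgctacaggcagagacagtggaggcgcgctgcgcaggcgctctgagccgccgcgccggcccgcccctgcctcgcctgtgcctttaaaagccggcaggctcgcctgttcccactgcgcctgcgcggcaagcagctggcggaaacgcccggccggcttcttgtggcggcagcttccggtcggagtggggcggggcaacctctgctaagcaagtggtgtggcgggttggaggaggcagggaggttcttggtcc
Apex1, chr14:50924699-50924998, plus strand: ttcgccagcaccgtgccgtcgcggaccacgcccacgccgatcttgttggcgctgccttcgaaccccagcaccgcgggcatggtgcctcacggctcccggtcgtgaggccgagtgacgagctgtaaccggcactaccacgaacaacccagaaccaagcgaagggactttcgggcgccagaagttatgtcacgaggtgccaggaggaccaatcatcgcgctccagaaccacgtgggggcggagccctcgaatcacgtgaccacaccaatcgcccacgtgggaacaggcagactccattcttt
Atr, chr9:95857347-95857646, plus strand: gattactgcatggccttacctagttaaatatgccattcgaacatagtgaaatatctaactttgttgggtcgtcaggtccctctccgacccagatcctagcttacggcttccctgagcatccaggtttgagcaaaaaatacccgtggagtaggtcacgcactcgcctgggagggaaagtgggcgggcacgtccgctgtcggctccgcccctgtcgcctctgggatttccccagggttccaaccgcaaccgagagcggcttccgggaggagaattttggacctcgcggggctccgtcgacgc
Polk, chr13:96519138-96519437, minus strand: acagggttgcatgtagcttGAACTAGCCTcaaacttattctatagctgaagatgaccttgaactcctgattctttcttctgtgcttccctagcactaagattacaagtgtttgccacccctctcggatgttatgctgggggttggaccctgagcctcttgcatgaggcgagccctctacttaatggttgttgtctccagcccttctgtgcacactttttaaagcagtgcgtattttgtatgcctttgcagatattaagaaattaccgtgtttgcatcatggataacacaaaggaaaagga
None of the windows of Lig4, Apex1 and Atr held a match. The window of a downstream Polk start held a decamer match from 231 to 222 bases before that start, the only one in the 31 windows (3.23%), beside 8.36% of all 32851 windows in the reference. A match to letters is not evidence of binding, and no match says only that the letters are not in these windows.

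Among the genes of end joining, Lig4 rose and the other 4 did not pass the test, where 16.9% of all tested genes were called higher. Lig4 is the ligase that seals a broken chromosome, and it works in a complex with Xrcc4. The DMSO libraries gave 12.5 and 13.0 CPM and the activator libraries 19.2 and 18.4 CPM, so that both activator libraries lay above both controls. The means were 12.8 ± 0.388 and 18.8 ± 0.563 CPM (SD, n = 2 each), a 1.47-fold difference. On the log2 scale the difference was 0.53 ± 0.13 (SE; limma adjusted p = 0.000567), and it was called under all 16 alternatives tried, with log2 fold changes from 0.39 to 0.56 and adjusted p from 2.12e-05 to 0.0231. In the annotation no exon of Lig4 overlaps an exon of another gene.

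Its partners showed no such difference. Xrcc4, the scaffold that holds the ligase, stood at 11.4 and 9.29 CPM in DMSO and 11.5 and 9.88 CPM with the activator, and the groups overlapped (log2 fold change 0.05, 95% interval -0.24 to 0.34). Xrcc5 and Xrcc6 encode Ku80 and Ku70, the ring that slides onto a broken end. Xrcc5 stood at 15.7 and 16.2 CPM against 18.8 and 14.6 CPM, overlapping, and Xrcc6 at 13.6 and 11.2 CPM against 10.8 and 10.4 CPM, without overlap and without a call (adjusted p = 0.283). Prkdc, the catalytic subunit of the DNA-dependent kinase, stood between 64.4 and 68.4 CPM in all 4 libraries, with an interval of -0.21 to 0.12. Whether Lig4 differed from its partners was not tested. Of 6 other end joining genes, 2 fell and 0 rose, where 16.3% and 16.9% of all tested genes were called lower and higher. For protein-coding genes these shares were 7.19% and 21.2%. Polq, the polymerase of the alternative route that joins ends at short matches, fell from 35.04 and 32.6 CPM to 19.3 and 17.4 CPM, a log2 fold change of -0.85 ± 0.11 (SE, limma adjusted p = 2.19e-10). Dclre1c, which encodes the nuclease Artemis, fell from 28.9 and 22.9 CPM to 20.2 and 17.3 CPM (log2 fold change -0.44), and without DMSO replicate 1 that was -0.28 with no call. The Dclre1c call was also lost in limma without the trend of the spread.

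In base excision and single-strand break repair, 1 of the 7 genes rose and 1 fell. Of all tested genes 16.9% were called higher and 16.3% lower, and of protein-coding genes 21.2% and 7.19%. Polb, the polymerase that fills the gap left by a removed base, fell from 33.5 and 30.5 CPM to 26.9 and 20.1 CPM. The activator libraries lay below both controls and apart from each other. The means were 32.0 ± 2.07 and 23.5 ± 4.78 CPM (SD, n = 2 each), and the difference on the log2 scale was -0.44 ± 0.11 (SE; limma adjusted p = 0.000686). Without p53 activator replicate 2, the lower of the pair, it was -0.24 with no call (adjusted p = 0.135), and without p53 activator replicate 1 it was -0.64. Apex1, the endonuclease that cuts the backbone at a missing base, rose from 25.5 and 24.5 CPM to 32.1 and 31.1 CPM, with each group close together. On the log2 scale this was 0.33 ± 0.10 (SE; limma adjusted p = 0.00874), a 1.27-fold difference of means.

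The call of Apex1 was the less stable. It was lost when DMSO replicate 2 was left out (adjusted p = 0.0783) and likewise p53 activator replicate 1 (0.0570), in DESeq2 (0.0983) and after rescaling to the protein-coding total (0.220). Of its annotated exonic bases, 61.7% overlap exons of Pip4p1, a gene of the opposite strand, chosen for naming after its values were seen. Pip4p1, a phosphoinositide phosphatase, rose from 29.6 and 27.3 CPM to 38.7 and 36.4 CPM, a log2 fold change of 0.39. Whether the authors' counting used strand is not stated in any source at hand, so the reads of the pair may not be separable.

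Per length of the longest annotated coding transcript, Polb and Apex1 were the highest of the 34 in both DMSO libraries. That transcript had 1201 bases for Polb, whose annotated exons together cover 3940 bases. For Apex1 these lengths were 1239 and 1422 bases. The rank of Polb and its order beside Apex1 therefore depend on the length used. In CPM per kb of the longest annotated coding transcript, Polb stood at 27.9 and 25.4 in DMSO and Apex1 at 20.6 and 19.7. With the activator Polb stood at 22.4 and 16.7 and Apex1 at 25.9 and 25.1, so that the order of the pair turned, and in activator library 2 Trp53bp1, at 17.6, also lay above Polb. Trp53bp1, at 15.0 and 16.4, and Parp1, at 13.2 and 13.6 CPM per kb, came next in DMSO. The lowest levels per length in DMSO were those of Mgmt at 0.40 and 0.39, Brca1 at 0.41 and 0.45, Chek2 at 0.69 and 0.44 and Fancd2 at 0.81 and 0.70 CPM per kb. Brca1 and Chek2 overlapped, and the gaps from Mgmt to Brca1 and from Chek2 to Fancd2 were small beside the spread between libraries.

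The other 5 genes of the pathway were not called. Parp1, which binds nicks and marks them with poly(ADP-ribose), stood at 50.9 and 52.6 CPM in DMSO and 60.1 and 56.7 CPM with the activator. Lig3, the ligase that works with Xrcc1, stood at 29.1 and 31.5 CPM against 34.1 and 35.1 CPM. In both the activator libraries were the higher, with adjusted p of 0.121 and 0.138. Xrcc1, the scaffold of the pathway, stood at 6.86 and 6.95 CPM against 6.19 and 6.49 CPM, and Lig1, the ligase of replication and of long-patch repair, at 6.10 and 5.81 CPM against 5.04 and 5.02 CPM. Both were lower in the activator libraries without a call (adjusted p = 0.655 and 0.376). Ogg1, the glycosylase of oxidised guanine, stood at 6.65 and 6.01 CPM against 8.34 and 5.87 CPM, and its groups overlapped.

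Among 20 other genes of base excision and single-strand break repair, 19 had a row and 16 were tested. Of the 16, 2 rose and 2 fell, where 16.9% and 16.3% of all tested genes were called higher and lower. For protein-coding genes these shares were 21.2% and 7.19%. Apex2, a relative of Apex1 with a role at blocked ends, fell from 55.4 and 53.4 CPM to 30.6 and 28.9 CPM. Its log2 fold change of -0.85 ± 0.09 (SE, limma adjusted p = 6.88e-13) was opposite in sign to that of Apex1, and it stayed called under all 16 alternatives. Tdp1 and Tdp2 clear topoisomerase remnants from DNA ends. Tdp1 fell (log2 fold change -0.41), and the call was lost without DMSO replicate 1, where it was -0.25. The Tdp1 call was also lost in DESeq2 and in limma without the trend of the spread. Tdp2 rose (0.35, adjusted p = 0.0386 in limma), a call lost in edgeR (adjusted p = 0.0580) and without each of the 4 libraries in turn.

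**Figure D2:**
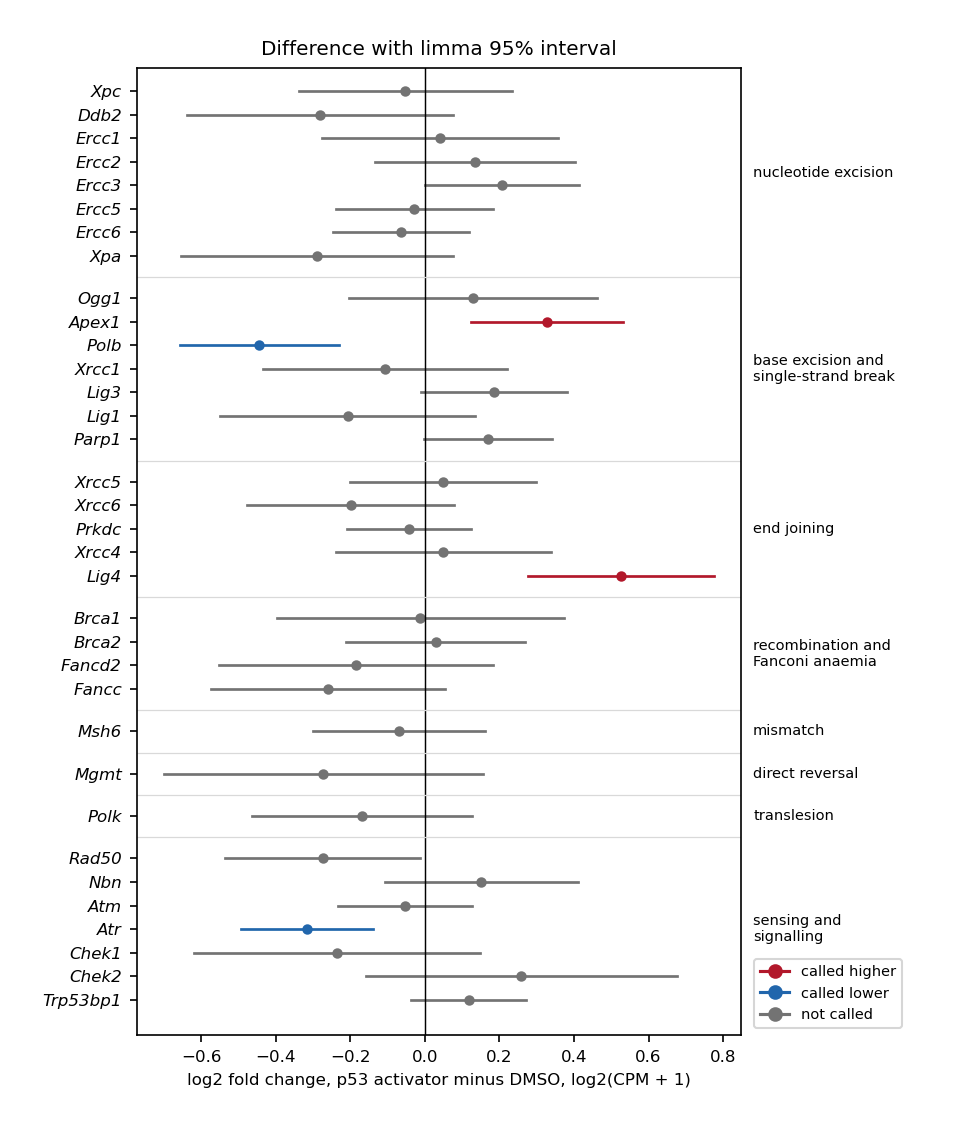
Log2 fold change of each of the 34 genes, p53 activator minus DMSO on the log2(CPM + 1) scale, with its 95% limma interval, red for called higher, blue for called lower and grey for not called. Lig4 at 0.53 and Apex1 at 0.33 lie to the right of 0, Polb at -0.44 and Atr at -0.32 lie to the left, and most other intervals cross 0.

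Of the 8 genes of nucleotide excision repair 0 passed the test in limma, edgeR or DESeq2 (1, Ercc3, had an unadjusted limma p under 0.05). Limma called 33.2% of all tested genes in either direction. For all 8 the interval excluded a 1.5-fold rise. Xpc, which finds distorted DNA and is a known p53 target, stood at 10.01 and 11.4 CPM in DMSO and 10.7 and 9.82 CPM with the activator, and the groups overlapped. Its log2 fold change was -0.05 with an interval of -0.34 to 0.23. Ddb2 recognises ultraviolet lesions. It stood at 5.28 and 4.94 CPM against 4.35 and 3.73 CPM, lower in both activator libraries with an interval of -0.64 to 0.08 (adjusted p = 0.230). Xpa, which checks the opened lesion, had a like pattern, at 5.14 and 4.14 CPM against 3.83 and 3.39 CPM.

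The helicases and nucleases of the pathway lay close to their control levels. Ercc3, the XPB subunit of the TFIIH helicase, stood at 23.4 and 27.3 CPM against 29.6 and 29.1 CPM, higher without a call (adjusted p = 0.116). Its partner subunit Ercc2, or XPD, stood at 13.4 and 11.4 CPM against 12.5 and 14.8 CPM. The cutting enzymes are Ercc1, which acts with Ercc4 on one side of the lesion, and Ercc5 on the other. Ercc1 stood at 6.86 and 7.82 CPM against 7.29 and 7.85 CPM, and Ercc5 at 26.9 and 24.3 CPM against 26.2 and 24.0 CPM. Ercc6, which clears stalled RNA polymerase and is lost in Cockayne syndrome, was the most abundant of the 8 in CPM, at 47.2 and 43.4 CPM against 47.3 and 39.6 CPM. The groups of these last 4 genes overlapped.

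Among 21 other genes of nucleotide excision repair, all tested, 5 rose and 1 fell, where 21.2% of protein-coding genes were called higher, so the share that rose was near the background. The rises were 3 in edgeR, 2 in DESeq2 and 1 in limma without the trend of the spread. Their limma median log2 fold change was 0.16, beside -0.04 for the 8. Ddb1, the adaptor through which Ddb2 joins a ubiquitin ligase, rose from 163 and 174 CPM to 218 and 235 CPM, a log2 fold change of 0.42 ± 0.08 (SE, limma adjusted p = 7.24e-06), and was called under all 16 alternatives. Cul4a, the cullin of that ligase, rose from 46.3 and 42.0 CPM to 56.2 and 50.9 CPM. Rad23b, a partner of Xpc that also carries proteins to the proteasome, rose from 112 and 101 CPM to 135 and 132 CPM. Ddb1 and Cul4a serve many substrates besides repair proteins. The Cul4a call was lost without DMSO replicate 2 (log2 fold change 0.20) or p53 activator replicate 1 (0.20), and those of Cul4a and Rad23b after rescaling to the protein-coding total (0.12 and 0.18). The difference between the 8 and the 21 was not tested.

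Damage sensing and signalling showed 1 fall among 7 genes, where 16.3% of all tested genes and 7.19% of protein-coding genes were called lower. Atr, the kinase of stalled forks and of single-stranded DNA, fell from 56.8 and 55.3 CPM to 48.3 and 41.5 CPM, and both activator libraries lay below the close pair of controls. The means were 56.0 ± 1.08 and 44.9 ± 4.82 CPM (SD, n = 2 each), which on the log2 scale was -0.32 ± 0.09 (SE; limma adjusted p = 0.00351). Leaving out DMSO replicate 1 ended the call (-0.30, adjusted p = 0.0660), as did leaving out p53 activator replicate 2 (-0.21, adjusted p = 0.138). Atm, the kinase of double-strand breaks, stood at 45.4 and 47.9 CPM against 46.8 and 43.1 CPM, overlapping, with an interval of -0.23 to 0.13. Whether Atr and Atm differed in their response was not tested.

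Rad50 and Nbn are subunits of the complex that tethers broken ends and recruits Atm. Rad50 stood at 14.6 and 16.9 CPM in DMSO and 11.6 and 14.2 CPM with the activator, apart but not called (log2 fold change -0.27, adjusted p = 0.0968). It was called lower without p53 activator replicate 2 (-0.41, adjusted p = 0.0474) and after rescaling to the protein-coding total (-0.42, adjusted p = 0.0199). Nbn stood at 13.2 and 14.0 CPM against 16.8 and 13.7 CPM, with overlap. Trp53bp1, which encodes the chromatin reader 53BP1 that steers breaks towards end joining, was the most abundant of the 34 in CPM. It stood at 145 and 157 CPM against 158 and 170 CPM, and its interval of -0.04 to 0.27 left a rise of under 1.5-fold possible.

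The checkpoint kinases were scarce. Chek1, which Atr activates, stood at 3.29 and 3.14 CPM against 2.57 and 2.60 CPM, lower in both activator libraries without a call (adjusted p = 0.369). Chek2, which Atm activates, stood at 1.58 and 1.002 CPM against 1.99 and 1.47 CPM and overlapped. It rested on 23, 15, 38 and 26 reads, and its interval of -0.16 to 0.68 held both no change and a 1.5-fold rise. Of 16 other genes of damage signalling, 14 had a row and were tested, and 0 were called by limma, edgeR or DESeq2 (1 had an unadjusted limma p under 0.05). The limma share over all tested genes was 33.2% in either direction.

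Of the 4 genes of homologous recombination and the Fanconi anaemia pathway, 0 were called by limma, edgeR or DESeq2, and 0 had an unadjusted limma p under 0.05. The limma share over all tested genes was 33.2% in either direction. Brca1, which starts the resection and loading steps, stood at 2.67 and 2.94 CPM in DMSO and 2.78 and 2.77 CPM with the activator. Brca2, which loads the strand exchange protein, stood at 16.9 and 17.2 CPM against 18.0 and 16.8 CPM. Both pairs of groups overlapped, with intervals of -0.40 to 0.37 and -0.21 to 0.27. Fancd2 and Fancc belong to the pathway that unhooks crosslinks between strands. Fancd2 stood at 4.46 and 3.87 CPM against 3.46 and 3.61 CPM, and Fancc at 8.91 and 8.62 CPM against 8.08 and 6.32 CPM, both lower in the activator libraries (adjusted p = 0.469 and 0.202). Of 29 other genes of these pathways, 27 were tested and 0 were called by limma, edgeR or DESeq2 (2 had an unadjusted limma p under 0.05), the median log2 fold change being 0.00. Brca1, Fancd2, Chek1 and Lig1 are active in dividing cells, whose markers had the sums given above, and the part of dividing cells in these levels was not tested.

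The remaining routes had 1 gene each. Msh6, which finds mismatched bases, stood at 22.3 and 18.9 CPM in DMSO and 21.1 and 18.1 CPM with the activator, with overlap. Its log2 fold change was -0.07, with an interval of -0.30 to 0.16.

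Mgmt, which takes an alkyl group off guanine in a single step, was at the edge of detection. It stood at 1.17 and 1.14 CPM against 0.892 and 0.677 CPM, from 17, 17, 17 and 12 reads, and its interval of -0.70 to 0.16 did not exclude a 1.5-fold fall. Alkbh3, a demethylase of alkylated bases, fell from 12.9 and 12.5 CPM to 8.29 and 9.43 CPM (log2 fold change -0.48, limma adjusted p = 0.00641), and the call was lost without DMSO replicate 1 (-0.46) or p53 activator replicate 1 (-0.39). Polk, a polymerase that copies past bulky lesions and a known p53 target, stood at 10.3 and 9.89 CPM against 9.39 and 8.35 CPM. Both its activator libraries were the lower, with an interval of -0.46 to 0.13 (adjusted p = 0.402).

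Of 9 other genes of translesion synthesis, 2 rose and 1 fell. Rev1, which recruits the other translesion polymerases, fell from 65.1 and 62.2 CPM to 51.8 and 48.8 CPM (log2 fold change -0.33). Of its annotated exonic bases, 26.6% overlap exons of Eif5b, a gene of the opposite strand, so its reads may not be separable. Ube2a and Ube2b, the ubiquitin-conjugating enzymes that mark the sliding clamp and also have roles outside repair, rose by 0.38 and 0.25 on the log2 scale. Without DMSO replicate 2 the call of each was lost (0.30 and 0.19), that of Ube2b was lost without p53 activator replicate 1 (0.15), and that of Rev1 without DMSO replicate 1 (-0.30). Ube2a and Ube2b also lost the call after rescaling to the protein-coding total, and Ube2b in edgeR and DESeq2. In limma without the trend of the spread Rev1, Ube2a and Ube2b were not called. Over all pathways, 106 of 110 other genes had a row and 102 were tested. Of all tested genes 16.9% were called higher and 16.3% lower, and of protein-coding genes 21.2% and 7.19%. Of the 102, 9 rose (8.82%) and 8 fell (7.84%). Without DMSO replicate 1 the counts were 6 and 2, without DMSO replicate 2 they were 3 and 8, and without p53 activator replicate 1 they were 3 and 7.

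**Figure D3:**
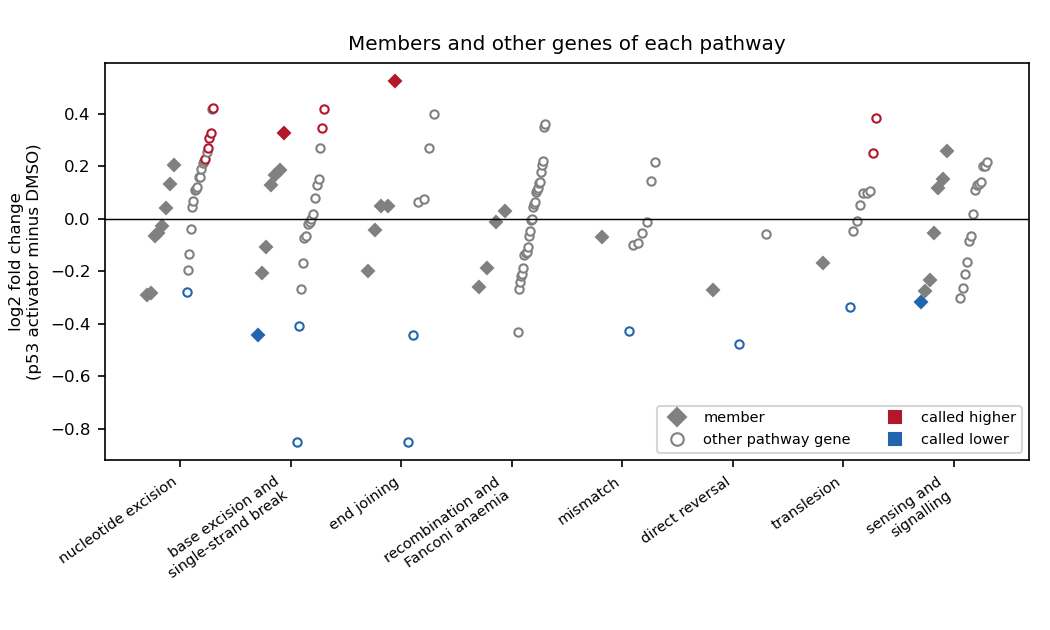
Log2 fold change (p53 activator minus DMSO) of the 34 genes (diamonds) and of the other tested genes of each pathway (open circles), in order of size within each set, red for called higher and blue for called lower. The other genes of nucleotide excision repair hold 5 red points, the recombination and Fanconi anaemia columns hold no call, and the lowest points are Apex2 and Polq at -0.85.

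The 34 genes also differed in length and in how separable their reads are. Across them, the log2 fold change had a Pearson correlation of -0.44 and a Spearman correlation of -0.33 with the log10 of the genomic span in the annotation, beside -0.07 and -0.09 across 12763 protein-coding genes. These are descriptions across genes, which share libraries and are not independent replicates. With log10 mRNA length the Pearson correlation was 0.02. The called risers were short, with spans of 2.17 kb for Apex1 and 8.64 kb for Lig4, and Polb and Atr spanned 25.3 and 94.2 kb. Exons of 18 of the 34 genes overlapped exons of another annotated gene, and for 6 a gene of the table covered over 10% of the exonic bases. One of the 6 is Ddb2, of which 23.8% overlaps Acp2, a lysosomal phosphatase of the opposite strand that was called higher (log2 fold change 0.31), named after its values were seen.

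**Figure D4:**
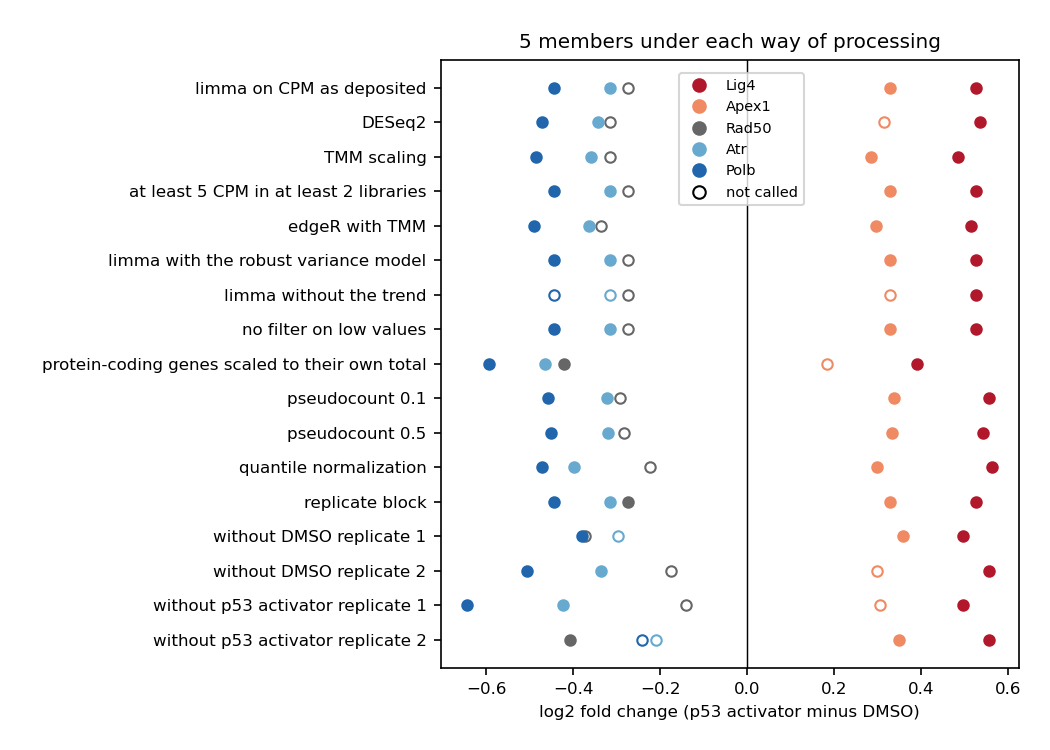
Log2 fold change of Lig4, Apex1, Rad50, Atr and Polb (p53 activator minus DMSO) under each way of processing, filled where called and open where not. Lig4 is filled throughout, from 0.39 to 0.56, while Apex1, Atr and Polb keep their sign and lose the call under 5, 3 and 2 of 16 alternatives.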

How the data were processed

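Total RNA (TRIzol) was sequenced after ribosomal RNA depletion, per the labels' protocols. The submitters' processing notes name TopHat2, Cufflinks 2.0.0 and mm9, without roles. The program, annotation and strand setting used for counting were not given in the sources used here. The authors deposited 1 table of CPM values, read counts scaled to a common total per library, with no header naming the unit. The unit was read from the values: each column sums to just under 1000000 and 100% of values are whole multiples of 1 read within 0.01 reads. One read was worth 0.0525 to 0.0686 CPM.

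limma 3.58.1 (R 4.3.3) was fitted to log2(CPM + 1), which understates changes of low genes, with a trend of the spread, two-sided, with Benjamini-Hochberg adjustment over 16654 genes. The 2 residual degrees of freedom were joined by 98.0 prior ones, so a shared spread largely sets the calls. Counts for this comparison were simulated in 5 runs, each with 200 genes changed and no shift in the mitochondrial share. Over about 16365 tested genes, limma recovered 23.2%, 66.0%, 86.0% and 92.8% of genes changed 1.25-, 1.5-, 2- and 3-fold, and 4.43% of calls were false. In the data 33.2% of tested genes were called and that share moved, so these rates may not carry over. Alternatives included edgeR 4.0.16 with TMM on the whole reads, which called 1786 genes higher and 2895 lower, and DESeq2 1.42.0. The plan's other settings are in the closing section.

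Lengths, overlaps and gene types came from GENCODE vM21, in which all 34 symbols matched 1 gene; its build is not mm9, so only the RefSeq windows carry coordinates. Named were all 34 genes, up to 3 called other genes per pathway by smallest p, and Trp53, Mdm2 and Cdkn1a; a gene that this rule takes is not reported here. The members and lists were chosen with earlier results of these data known.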

Additional observations from a re-analysis of the deposited data

How the results depend on the processing

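With 2 libraries per group a single library could decide a call, and depth limits the scarce genes, such as Mgmt with 12 to 17 reads per library. Of the 34 genes, 2 rose and 2 fell. The rises were 1 in DESeq2, 1 without the trend of the spread and 1 after rescaling to the protein-coding total. The falls were 0 without the trend, where 5 were lower at an unadjusted p under 0.05, and 2 each in edgeR and DESeq2. With a library left out there were 1 to 2 rises and 1 to 2 falls. Of the other pathway genes, whose alternatives were chosen after seeing the data, 9 rose and 8 fell. The rises were 3 in DESeq2, 5 with TMM scaling, 4 in edgeR, 1 without the trend, 5 without a filter, 1 after protein-coding rescaling and 15 with the replicate block, and 3 to 10 with a library left out. The falls were 5 in DESeq2, 3 without the trend, 13 after protein-coding rescaling and 2 to 8 with a library left out.

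Over all genes, 2811 rose and 2721 fell. The rises were 1123 in DESeq2, 1822 with TMM scaling, 1786 in edgeR, 302 without the trend, 554 after protein-coding rescaling, 1632 with quantile normalization and 1138 to 2122 with a library left out (fewest without DMSO replicate 1). The falls were 1575 in DESeq2, 1776 at a minimum of 5 CPM, 1666 after protein-coding rescaling and 1445 to 2468 with a library left out (fewest without DMSO replicate 1). No label says that a replicate number marks a shared culture, and same-numbered libraries deviated together with a correlation of 0.117 across genes. With the replicate block 3705 genes rose and 3132 fell, and of the 34 genes 2 rose and 3 fell, Rad50 being added (adjusted p = 0.0436).

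Of the named genes, those called on the deposited scale kept their sign under every alternative run, and each change of sign was in a gene with no call under either setting. After protein-coding rescaling the log2 fold changes were -0.094 for Ercc1, -0.0066 for Ercc2, -0.0024 for Ogg1, -0.095 for Xrcc5, -0.090 for Xrcc4, -0.11 for Brca2, -0.032 for Trp53bp1 and -0.063 for Trp53. With quantile normalization they were 0.041 for Xpc, 0.036 for Xrcc1, 0.23 for Brca1, 0.033 for Fancd2 and -0.021 for Trp53bp1. In edgeR they were -0.0014 for Ercc1 and -0.012 for Brca2, and with TMM scaling -0.012 for Brca2. With a library left out, the ranges were -0.14 to 0.031 for Xpc, -0.042 to 0.12 for Ercc1, -0.097 to 0.042 for Ercc5, -0.19 to 0.060 for Ercc6, -0.092 to 0.35 for Ogg1, -0.12 to 0.22 for Xrcc5, -0.084 to 0.18 for Xrcc4, -0.062 to 0.038 for Brca1, -0.020 to 0.080 for Brca2, -0.18 to 0.044 for Msh6, -0.11 to 0.0063 for Atm and -0.024 to 0.17 for Trp53. The causes were not tested.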
